A study of Mus musculus with 9 samples.

Results

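Keratins of the interfollicular epidermis were followed across the genotypes of an Esrp knockout series. The set held 10 genes chosen by symbol from the 38203 genes of the expression table: Krt5, Krt14 and Krt15 of the basal layer, Krt1, Krt10, Krt77 and Krt2 of the suprabasal layers, and Krt78, Krt79 and Krt80, less studied type II keratins of differentiating epithelium. Each symbol had a single row, and all 10 genes were among the 16897 that averaged above 0.1 FPKM in at least 1 genotype and were tested.

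Keratins form the intermediate filaments of epithelial cells, and each filament is built from pairs of a type I and a type II chain. Basal keratinocytes make Krt5 with Krt14, and cells that leave the basal layer switch to Krt1 with Krt10. The filaments are anchored at desmosomes and hemidesmosomes, and inherited changes in the chains cause blistering or thickening of the skin in people.

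Esrp1 and its paralog Esrp2, the epithelial splicing regulatory proteins, bind RNA and set splicing patterns specific to epithelial cells. Polyadenylated RNA was sequenced from the trypsin-separated, full thickness epidermis of individual E18.5 mouse embryos on a mixed C57BL6/129Sv background. The genotypes were WT (Esrp1 WT/Esrp2 WT, 2 libraries), KO (Esrp1 KO/Esrp2 WT, 3), KH (Esrp1 KO/Esrp2 Het, 2) and DKO (Esrp1 KO/Esrp2 KO, 2), with the alleles lost in the whole embryo rather than in keratinocytes alone. By the sample labels the controls are WT, but the extraction text describes them as lacking Esrp2. Their Esrp2 RNA, at 118 and 136 FPKM against 0.0843 and 0.0463 in DKO, goes with the labels, and they were used as WT. Comparing KO, KH and DKO with WT, and DKO with KO and KH, asked what the loss of Esrp1 and then of the remaining Esrp2 alleles did to keratin RNA.

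Esrp2 stood at 118 and 136 FPKM in the WT libraries, at 88.1, 88.4 and 131 in KO, at 38.6 and 89.5 in KH, and at 0.0843 and 0.0463 in DKO. Of the KH libraries, only replicate 1 was thus below KO in Esrp2 RNA. Esrp1 stood at 119 and 142 FPKM in WT against 18.2 to 55.1 in the other 7 libraries, where KH replicate 2 was the highest. The Esrp1 allele removes internal exons, so RNA from the rest of the gene can still be counted. FPKM relate fragments to exon length and library size, and they carry no read counts. The paper reports mapped read pairs for each genotype, but the number of fragments behind each value is not given. Libraries summed to 713318 to 1130713 FPKM, and rescaling every library to the same sum (TPM) was tried as an alternative. Xist, looked at after its values were seen, was at 76.2 to 180 FPKM in the 3 KO libraries and 111 in WT replicate 2. It was at or below 0.178 in the others, so the KO and DKO embryos also differed in this X-linked RNA. In DKO against KO, whatever goes with Xist cannot be told apart from genotype. Of the 7 keratinocyte markers, 4 are keratins of the set and carried nearly all of their sum of 28927 to 70077 FPKM, and the other 3 (Trp63, Cdh1 and Epcam) summed to 189 to 242. Per library, markers of red blood cells summed to 15.3 to 1520 FPKM, those of dermal fibroblasts to 251 to 492, of melanocytes to 42.4 to 204, of immune cells to 4.85 to 51.8, of hair follicle to 14.8 to 41.6, of skeletal muscle to at most 1.02 and of endothelium to at most 0.355.

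All 10 genes lie on the minus strand of GRCm38 (GENCODE M21) in the keratin clusters of their type. The type I genes are on chromosome 11, Krt10 at 99385254 to 99389364, Krt15 at 100131758 to 100135928 and Krt14 at 100203162 to 100207548. The type II genes are on chromosome 15, with Krt80 at 101347444 to 101370162, Krt5 at 101707070 to 101712898, Krt2 at 101810689 to 101818169 and Krt1 at 101845426 to 101850794. Krt77, at 101858731 to 101869705, is the neighbour of Krt1, and Krt79 (101929332 to 101940324) and Krt78 (101946001 to 101954287) follow. Exact windows of 100 bases in the exons were shared with another gene in 2.38% of cases for Krt5 (with Krt6a and Gm5478), in 2.78% for Krt14 (with Krt16) and in none for the other 8 genes.

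The 150 bases before the start of 6 of these genes, from RefSeq on GRCm38.p6, are shown to set the promoters of genes with different levels side by side. They read 5′ to 3′ on the minus strand, with capitals for TATA-like letters (TATAA or TATATA or GATAAA, searched on the gene's own strand, overlaps joined) found 40 to 16 bases before the start.
Krt5 (chr15:101712906-101713055): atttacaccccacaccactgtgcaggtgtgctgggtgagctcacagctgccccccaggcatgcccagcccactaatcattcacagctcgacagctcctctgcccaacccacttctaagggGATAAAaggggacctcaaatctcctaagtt
Krt10 (chr11:99389365-99389514): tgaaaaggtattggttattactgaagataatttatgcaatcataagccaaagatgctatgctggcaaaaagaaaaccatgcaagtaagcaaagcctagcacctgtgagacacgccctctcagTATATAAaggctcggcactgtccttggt
Krt77 (chr15:101869706-101869855): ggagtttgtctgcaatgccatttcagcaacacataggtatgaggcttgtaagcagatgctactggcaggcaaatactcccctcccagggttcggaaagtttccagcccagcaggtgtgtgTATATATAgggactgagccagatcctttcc
Krt2 (chr15:101818170-101818319): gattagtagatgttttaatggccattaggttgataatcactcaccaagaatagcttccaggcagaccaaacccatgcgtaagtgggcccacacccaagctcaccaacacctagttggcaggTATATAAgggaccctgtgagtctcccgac
Krt78 (chr15:101954288-101954437): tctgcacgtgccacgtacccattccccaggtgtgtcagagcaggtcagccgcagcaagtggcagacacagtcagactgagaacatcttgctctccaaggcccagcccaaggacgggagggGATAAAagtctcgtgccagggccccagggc
Krt79 (chr15:101940325-101940474): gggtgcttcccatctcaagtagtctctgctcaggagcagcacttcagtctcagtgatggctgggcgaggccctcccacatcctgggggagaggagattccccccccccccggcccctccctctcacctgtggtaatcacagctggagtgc
TATA-like letters were present in 5 of these 6 windows, all but that of Krt79, and in 4.4% of 32851 RefSeq promoters. The motifs of AP-1 (TGANTCA), AP-2 (GCCNNNGGC) and Grainyhead factors (AACCGGTT), searched on both strands of 250 bases before the start, had no match in the 6 genes, against 6.7%, 13.7% and 0.1% of all promoters. Krt15, Krt1 and Krt80 had no entry in the promoter table used, and the entry of Krt14 starts inside the gene as GENCODE draws it, so it is not shown.

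In WT epidermis the suprabasal pair was the most abundant, with Krt10 at 28455 ± 5107 FPKM and Krt1 at 23685 ± 5332 (SD, n = 2 each), and these neighbours overlapped between libraries. Krt5 (2326 ± 24.3), Krt14 (1763 ± 58.9) and Krt15 (1049.9 ± 84.2) followed in that order without overlap, and then Krt78 at 230.3 ± 3.94 FPKM (SD, n = 2 each). Krt79 (101 ± 32.8), Krt77 (70.8 ± 15.5) and Krt80 (67.0 ± 11.1) could not be ordered beyond their spread, and Krt2 was last at 0.617 ± 0.168 FPKM (SD, n = 2 each). In DKO the order read Krt1, Krt10, Krt14, Krt5, Krt15, Krt79, Krt78, Krt80, Krt77 and Krt2. Neighbours overlapped there for Krt1 with Krt10, Krt14 with Krt5, Krt79 with Krt78 and Krt77 with Krt2. Together the 10 genes made up 5.62% and 7.51% of all FPKM in WT and 3.85% and 4.19% in DKO, with 3.86% to 8.01% in KO and 4.54% and 4.89% in KH.

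**Figure D1:**
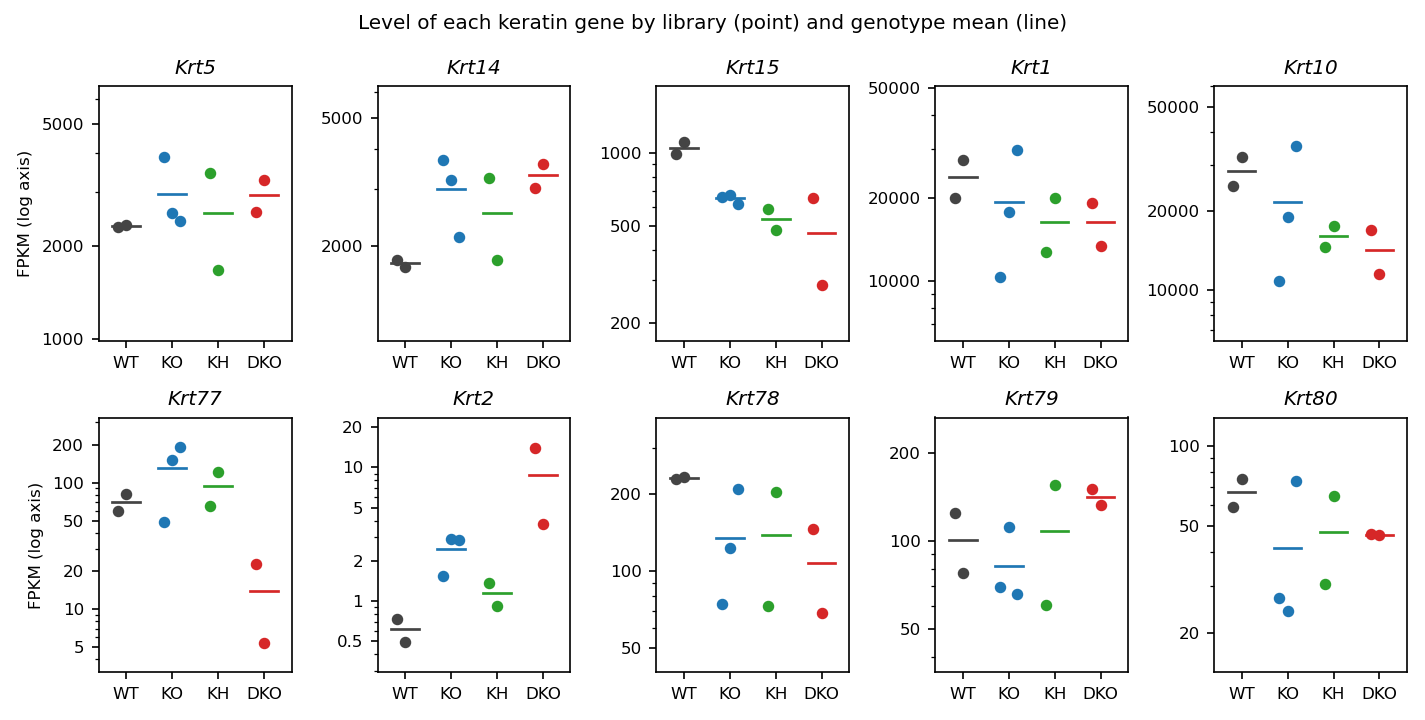
FPKM (log axis, a separate range for each gene) of the 10 keratin genes in the 9 libraries, by genotype; points are libraries and lines are genotype means. Krt77 lies lowest and Krt2 highest in both DKO libraries, and Krt15 and Krt78 lie below both WT libraries in all 7 other libraries.

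No keratin of the set was called in any of the 5 comparisons by limma, in which p-values were adjusted over all tested genes by the Benjamini-Hochberg method and a call needed an adjusted p below 0.05 and mean FPKM that differed over 2-fold. Between DKO and WT, 0 of 10 were called beside 0.728% of all tested genes, and 3 of 10 (Krt2, Krt77 and Krt15) had an unadjusted p below 0.05, beside 13.8% of all genes. In KO against WT 0 were called (0.0296% of all genes) and 1 had an unadjusted p below 0.05, Krt2 (4.53%), and in KH against WT 0 were called (0.0296%) and 1 had such a p, Krt15 (3.72%). In DKO against KO 0 were called (0.639%) and 2 had an unadjusted p below 0.05, Krt77 and Krt2 (6.8%), and the same counts held in DKO against KH, again for Krt77 and Krt2 (0.426% and 5.71%). The 3 comparisons with WT share the 2 WT libraries, and the 3 with DKO share the 2 DKO libraries.

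Libraries of both genotypes did not overlap for all 10 keratins in DKO against WT, where 54.3% of all tested genes did not overlap, but for 8 of 10 in TPM (45.4% of all genes), where Krt5 and Krt79 overlapped. In FPKM the count was 5 of 10 in KO against WT (24.7% of all genes), 5 of 10 in KH against WT (31.8%), 3 of 10 in DKO against KO (21.1%) and 2 of 10 in DKO against KH (28.9%). In TPM these counts were 4 of 10 (19.9%), 5 of 10 (30.0%), 4 of 10 (16.4%) and 4 of 10 (25.7%). Median log2 fold changes of the 10 genes were -0.52 in DKO, -0.35 in KO and -0.28 in KH against WT, beside 0.02, 0.00 and 0.00 over all tested genes. They were -0.06 in DKO against KO and 0.03 in DKO against KH, beside -0.0029 and 0.00 over all genes. Single libraries moved these medians: against WT the value for KO was -0.07 without KO replicate 1, that for KH was -0.11 without KH replicate 1 and -0.76 without KH replicate 2, and that for DKO ran from -0.33 without WT replicate 2 to -0.72 without WT replicate 1. In DKO against KO the median was -0.20 without KO replicate 1 but became 0.02 without KO replicate 3 or 0.09 without DKO replicate 2, and in DKO against KH it was -0.24 without KH replicate 1 and 0.26 without DKO replicate 2. Looking at WT against the 7 libraries without Esrp1 together, 4 of 10 keratins (Krt14, Krt15, Krt2 and Krt78) did not overlap, beside 10.1% of all genes, and 3 of 10 in TPM, without Krt14 (8.17%). Markers of other cells parted from WT in all 7 libraries too, and their part in it was not tested. Of the 5 melanocyte genes, 3 (Dct, Mlana and Tyr) were above both WT libraries in all 7, and the list summed to 42.4 and 46.6 FPKM in WT and to 55.9 to 204 in the others. Of the 9 hair follicle genes, 4 (Msx2, Krt28, Krt71 and Krt35) were above WT in all 7, at 2.87 FPKM or less, though the list's sum overlapped WT. Of the 8 dermal fibroblast genes, which summed to 251 and 297 FPKM in WT and to 347 to 492 in the other 7 libraries, Postn alone did so, at 176 and 211 FPKM in WT and 272 to 343 in the others, while Dcn was at 72.6 and 84.0 in WT, at 42.3 and 72.8 in DKO and at 48.9 to 136 in KO and KH, and Col1a1 at 2.65 or less. The 4 adipocyte genes summed to 6.68 and 17.9 FPKM against 30.1 to 110, nearly all of it Fabp4, with Plin1 and Adipoq at 0.0925 or less, and Cidec, at 0.0919 or less, was below WT.

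**Figure D2:**
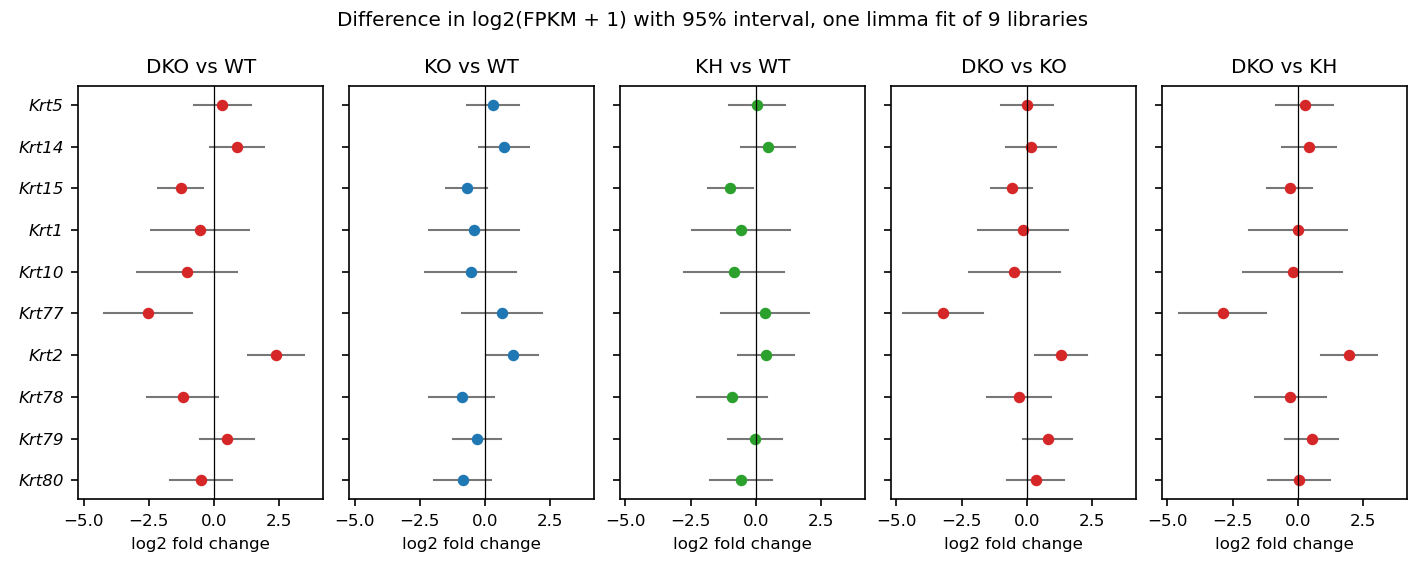
Differences in log2(FPKM + 1) of the 10 keratin genes in 5 comparisons from one limma fit; points are estimates and bars are 95% intervals. The intervals of Krt77 and Krt2 lie away from 0 in all 3 comparisons of DKO, and those of Krt1 and Krt10 span 0 in every comparison.

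Krt5, the type II chain of basal cells, measured 2309 and 2343 FPKM in the WT libraries, 3896, 2574 and 2423 in the KO libraries, 3457 and 1676 in the KH libraries, and 2587 and 3284 in the DKO libraries. KO replicate 1, KH replicate 1 and DKO replicate 2 were the highest, KH replicate 2 was the lowest, and DKO lay above WT but within the range of KO and KH. In TPM, DKO replicate 1 (2326) was below both WT libraries (2580 and 2702) and DKO replicate 2 (4254) above them. Its log2 fold change in DKO against WT was 0.33 ± 0.48 (SE), with a 95% interval of -0.76 to 1.41 and an adjusted p of 0.781 from limma, and it was 0.15 without DKO replicate 2 and 0.50 without DKO replicate 1.

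Krt14, the type I partner of Krt5, measured 1805 and 1722 FPKM in the WT libraries, 3692, 3202 and 2133 in the KO libraries, 3260.3 and 1809.6 in the KH libraries, and 3032 and 3596 in the DKO libraries. Every library without Esrp1 was above both WT libraries, KH replicate 2 barely so, and on the TPM scale that library was below both. The log2 fold changes against WT were 0.91 ± 0.46 (SE) in DKO (95% interval -0.14 to 1.95, adjusted p = 0.415), 0.73 ± 0.42 in KO (adjusted p = 0.853) and 0.46 ± 0.46 in KH (adjusted p = 0.98), all from limma. The value for KH was 0.04 without KH replicate 1 and 0.89 without KH replicate 2. Krt16, with which Krt14 shares a few windows, was at 353 and 697 FPKM in DKO and at 38.3 to 57.3 in the other 7 libraries, and Krt6a, which shares windows with Krt5, at 156 and 629 against 3.19 to 6.82. Reads assigned across these pairs were not tested.

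Krt15, a type I keratin of basal and hair follicle stem cells, measured 990.3 and 1109 FPKM in the WT libraries, 659, 676 and 618 in the KO libraries, 588 and 484 in the KH libraries, and 655 and 288 in the DKO libraries. All 7 libraries without Esrp1 were below both WT libraries, on the FPKM and the TPM scale, and DKO replicate 2 was the lowest of all. Log2 fold changes against WT were -1.27 ± 0.38 (SE) in DKO (95% interval -2.13 to -0.40, adjusted p = 0.208), -0.69 ± 0.35 in KO (interval -1.48 to 0.10, adjusted p = 0.853) and -0.97 ± 0.38 in KH (interval -1.84 to -0.11, adjusted p = 0.98), by limma with Benjamini-Hochberg adjustment. Without DKO replicate 2 the DKO value became -0.68, close to that of KO, and without DKO replicate 1 it became -1.86.

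The proportions among the basal keratins also differed between WT and the other libraries. Krt15 per unit of Krt14 was 0.549 and 0.645 in WT, and between 0.0800 and 0.29 in the other 7 libraries, with 0.216 and 0.0800 in DKO. Krt5 per unit of Krt14 was 1.28 and 1.36 for WT, 0.804 to 1.14 for KO, 1.06 and 0.926 for KH, and 0.853 and 0.913 for DKO. WT lay above every other library in both ratios. Since both genes of a ratio come from the same library, the scaling between libraries does not enter. These ratios, like those of Krt2 and of Krt1 with Krt10 below, were chosen after the values were seen and are given without a test.

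Krt1, the type II chain of spinous cells, measured 19914 and 27455 FPKM in the WT libraries, 10309.6, 17821 and 29862 in the KO libraries, 12737 and 20036 in the KH libraries, and 19206 and 13414 in the DKO libraries. The range within KO alone covered every other library. Its log2 fold change in DKO against WT was -0.54 ± 0.82 (SE), with a 95% interval of -2.42 to 1.34 that spans both directions (adjusted p = 0.788, limma). It was -0.28 without DKO replicate 2 and -0.31 without WT replicate 2, but -0.80 without DKO replicate 1.

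Krt10, the type I partner of Krt1, measured 24844 and 32066 FPKM in the WT libraries, 10815, 18916 and 35425 in the KO libraries, 14575 and 17450.5 in the KH libraries, and 16909.8 and 11518 in the DKO libraries. Both KH and both DKO libraries were below WT, whereas KO ran from the lowest to the highest value of the series. Log2 fold changes against WT were -1.02 ± 0.84 (SE) in DKO (95% interval -2.93 to 0.90, adjusted p = 0.601), -0.54 ± 0.77 in KO (adjusted p = 0.887) and -0.82 ± 0.84 in KH (adjusted p = 0.98), from limma. The value for KO was -0.12 without KO replicate 1 and -0.98 without KO replicate 3. In TPM the DKO libraries stood at 15205 and 14922 for Krt10 and at 17270 and 17379 for Krt1, so the gap between them in FPKM followed the sums of the libraries.

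Krt1 per unit of Krt10 was 1.14 and 1.16 in DKO, 0.802 and 0.856 in WT, 0.953, 0.942 and 0.843 in KO, and 0.874 and 1.15 in KH. Krt1 thus exceeded Krt10 in both DKO libraries and in KH replicate 2, and was below it in the other 6.

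The ratio of the suprabasal pair to the basal pair, (Krt1 + Krt10)/(Krt5 + Krt14), was 10.9 and 14.6 for WT, 2.78, 6.36 and 14.3 for KO, 4.07 and 10.8 for KH, and 6.43 and 3.62 for DKO. WT lay above DKO, but KO and KH each held a library near WT and one at or below DKO. Between DKO and the other 7 libraries the mean log2 ratio differed by -0.69 (exact two-sided permutation test, p = 0.389, 36 arrangements, smallest possible p = 0.0556), and by -0.28 without DKO replicate 2 and -1.11 without DKO replicate 1. Against WT alone the difference was -1.39, given without a test.

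In FPKM, KO replicate 1 and KH replicate 1 had the lowest Krt1 of all libraries and the highest Krt5. In TPM they kept the highest Krt5, but Krt1 was lowest in KO replicate 1 (14031.5) and KO replicate 2 (15761), with KH replicate 1 at 17857. KO replicate 1, KH replicate 1 and DKO replicate 2 also had the smallest sums of FPKM (734747, 713318 and 771857, against 867380 or more in the others). Non-keratin genes of the layers moved alike in these libraries. The mean log2(FPKM + 1) of the 12 basal layer genes was 0.67 above WT in KO replicate 1, 0.61 in KH replicate 1 and 0.67 in DKO replicate 2, and between -0.08 and 0.16 in the others, and that of the 12 granular and cornified layer genes was 1.32, 1.31 and 1.24 below WT in the same 3 libraries. Markers of hair follicle also summed highest there, to 41.6 FPKM in KO replicate 1, 37.7 in KH replicate 1 and 32.7 in DKO replicate 2. They summed to 14.8 to 21.1 in the other libraries, and their part in this was not tested. In bulk RNA, fewer cells of a layer and less RNA per cell cannot be told apart. Leaving out KO replicate 1 and KH replicate 1, a choice made after seeing the data, called no keratin in any comparison.

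**Figure D3:**
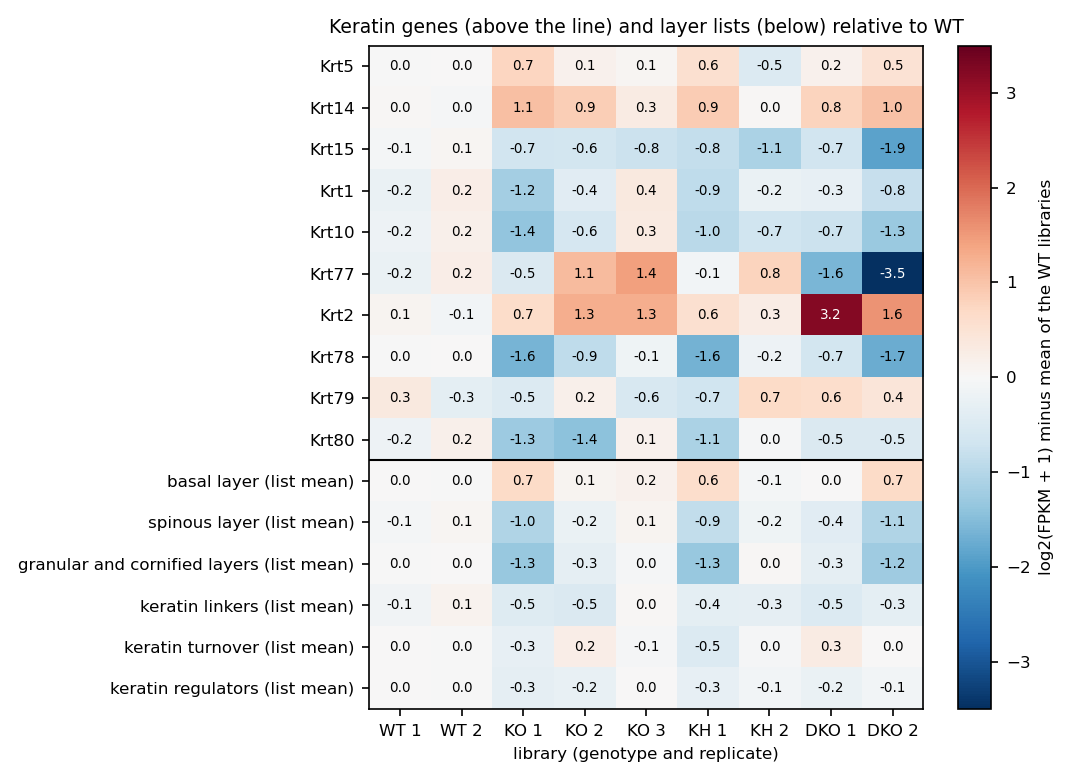
Log2(FPKM + 1) of each keratin gene, and the mean over each list of layer or keratin-related genes, minus the mean of the 2 WT libraries, in the 9 libraries. Red is above and blue below WT: Krt77 is at -1.6 and -3.5 in DKO, Krt2 at 3.2 and 1.6, and the basal and granular lists part in KO 1, KH 1 and DKO 2.

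Krt77, a type II keratin made in the suprabasal epidermis and in sweat gland ducts, measured 59.9 and 81.8 FPKM in the WT libraries, 48.9, 151 and 192 in the KO libraries, 65.8 and 122 in the KH libraries, and 22.6 and 5.36 in the DKO libraries. Both DKO libraries were below all 7 others, and KO and KH overlapped WT. Mean levels were 14.0 ± 12.2 FPKM in DKO (SD, n = 2), 19.7% of WT, and 131 ± 73.8 in KO (SD, n = 3), 184% of WT.

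Log2 fold changes of Krt77 were -2.53 ± 0.74 (SE) in DKO against WT (95% interval -4.21 to -0.85, adjusted p = 0.195), -3.21 ± 0.67 against KO (interval -4.75 to -1.68, adjusted p = 0.12) and -2.88 ± 0.74 against KH (interval -4.57 to -1.20, adjusted p = 0.309), by limma. The adjusted p crossed the threshold with TPM against KO (0.0141) and against KH (0.0433), and without KO replicate 1 against KO (0.0456). Against WT it stayed above 0.05 under all 19 other settings listed with the methods, and the value was -1.59 without DKO replicate 2 and -3.48 without DKO replicate 1. Without these libraries in the same order it was -2.27 and -4.16 against KO, and -1.94 and -3.83 against KH. KO and KH against WT gave 0.68 ± 0.67 and 0.35 ± 0.74 (SE), with adjusted p of 0.861 and 0.991 in the same fit, and the value for KO was 1.27 without KO replicate 1 and 0.29 without KO replicate 3.

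Set against Krt10 in the same library, Krt77 stood at 2.41 and 2.55 FPKM per 1000 FPKM of Krt10 for WT, at 4.52, 7.97 and 5.43 for KO, at 4.52 and 6.97 for KH, and at 1.34 and 0.466 for DKO. DKO was below WT, and all KO and KH libraries were above WT, without overlap. The mean log2 ratio in DKO was 2.51 below that of the other 7 libraries, with an exact two-sided permutation p of 0.0556, the smallest that 36 arrangements allow, and the difference was 1.75 without DKO replicate 2 and 3.28 without DKO replicate 1. Against WT alone the difference was -1.65, also without a test. Per 1000 FPKM of Krt1 the same order held, with 1.18 and 0.4 in DKO, 3.01 and 2.98 in WT, and 4.74 to 8.45 in KO and KH.

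Krt2, the type II keratin of the upper spinous and granular layers, strong in tail, ear and sole skin, measured 0.736 and 0.498 FPKM in the WT libraries, 1.54, 2.93 and 2.89 in the KO libraries, 1.37 and 0.918 in the KH libraries, and 13.9 and 3.76 in the DKO libraries. Every library without Esrp1 was above both WT libraries, and both DKO libraries were above all others. Mean levels were 8.84 ± 7.18 FPKM in DKO (SD, n = 2), 14.3 times the mean of WT, and 2.45 ± 0.792 in KO (SD, n = 3), 3.97 times WT, but at its highest Krt2 still stood at 0.823 FPKM per 1000 FPKM of Krt10.

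Log2 fold changes of Krt2 were 2.39 ± 0.47 (SE) in DKO against WT (95% interval 1.31 to 3.46, adjusted p = 0.0785), 1.07 ± 0.43 in KO against WT (interval 0.08 to 2.05, adjusted p = 0.853) and 0.40 ± 0.47 in KH against WT (interval -0.67 to 1.48, adjusted p = 0.98), by limma. The pseudocount of 1 holds these values down for so low a gene, and with a pseudocount of 0.1 the DKO value was 3.38 with an adjusted p of 0.039. It was also called in DKO against WT with TPM (adjusted p = 0.0253), with arrayWeights (0.0198) and without DKO replicate 2 (0.0111, log2 fold change 3.21), whereas without DKO replicate 1 the log2 fold change was 1.56. DKO exceeded KO by 1.32 ± 0.43 (SE, adjusted p = 0.441) and KH by 1.98 ± 0.47 (SE, adjusted p = 0.252). Without DKO replicate 1 these differences were 0.49 and 1.16, and without DKO replicate 2 they were 2.14 and 2.81.

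Krt2 and Krt77 were the 2 keratins of the set whose DKO libraries did not overlap the 7 others, which held for 10.9% of all tested genes, and the same held for both in TPM (9.36%). DKO replicate 1 exceeded DKO replicate 2 in both genes, so it lay farther from WT for Krt2 and nearer for Krt77. Of the 5 melanocyte genes, whose sum also parted WT from the other 7 libraries, 4 were higher at an unadjusted p below 0.05 (6.15% of all tested genes) and 0 were called in DKO against WT by limma. They summed to 93.1 and 204 FPKM in DKO, against 42.4 to 46.6 for WT, 66.4 to 80.5 for KO and 55.9 to 148 for KH. The 5 red blood cell genes summed to 431 and 1520 FPKM in DKO, 15.3 and 172 in KH, 106 to 587 in KO and 92.9 and 624 in WT. In DKO against KH all 5 were higher at an unadjusted p below 0.05, beside 3.2% of all tested genes, with a median log2 fold change of 3.77 and 0 called, and against WT and KO 0 of 5 had such a p. Krt13, listed here with simple and periderm keratins and chosen after its values were seen, stood at 47.1 and 9.46 FPKM in DKO and at 0.832 to 3.85 elsewhere. It carried most of the sum of the 5 genes in DKO (53.6 and 16.1 FPKM, against 6.74 to 9.47 in the other 7 libraries). At an unadjusted p below 0.05, 3 of the 5 (Krt13, Krt18 and Krt4) were higher in DKO than in WT and Krt19 was lower, at a log2 fold change of -0.44, while Krt8 gave 0.18. Which cells made Krt13 was not tested, nor was the part of the cells behind any of these markers in the levels of Krt2 and Krt77.

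**Figure D4:**
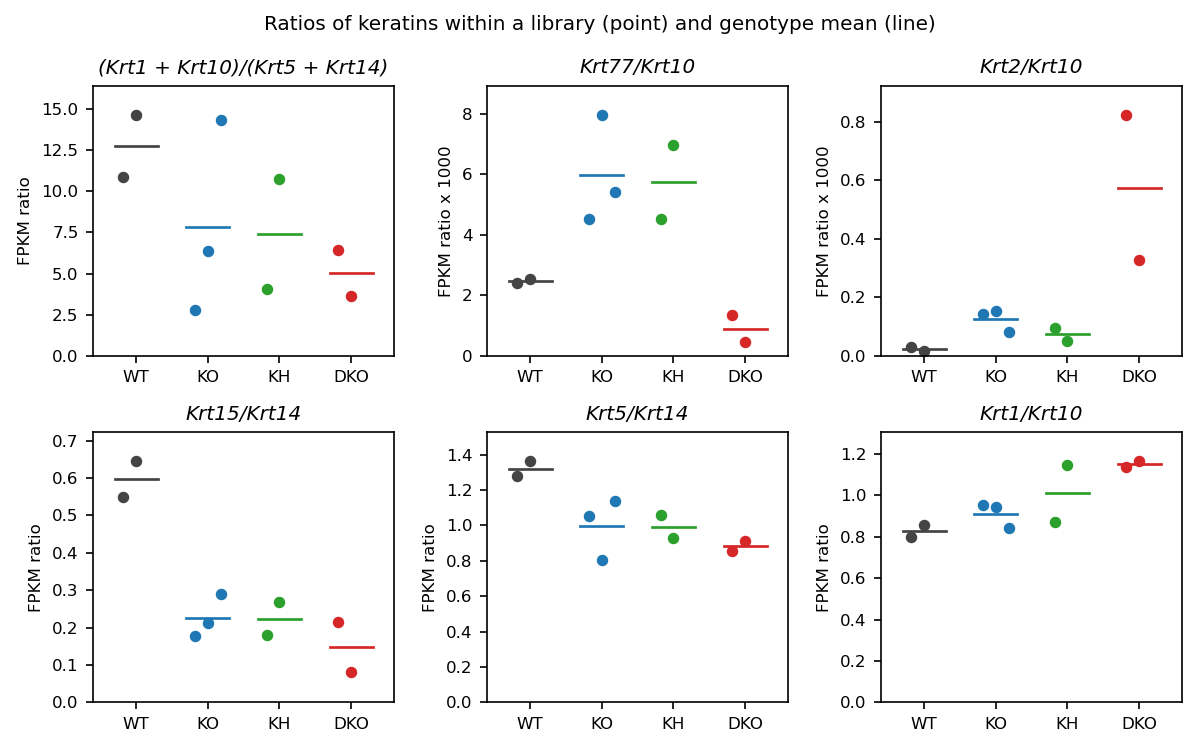
Ratios of FPKM within a library, by genotype, with points for libraries and lines for genotype means; the ratios of Krt77 and Krt2 to Krt10 are multiplied by 1000. Krt77/Krt10 is lowest and Krt2/Krt10 highest in DKO, and Krt15/Krt14 and Krt5/Krt14 are highest in WT.

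Krt78, a type II keratin encoded beside Krt79, measured 227 and 233 FPKM in the WT libraries, 74.0, 123 and 208 in the KO libraries, 72.7 and 202 in the KH libraries, and 146 and 68.3 in the DKO libraries. All 7 libraries without Esrp1 were below both WT libraries, in FPKM and in TPM. Log2 fold changes against WT were -1.20 ± 0.59 (SE) in DKO (95% interval -2.55 to 0.15, adjusted p = 0.411), -0.89 ± 0.54 in KO (adjusted p = 0.853) and -0.92 ± 0.59 in KH (adjusted p = 0.98), from limma. The value for DKO was -0.66 without DKO replicate 2 and -1.74 without DKO replicate 1. That for KO was -0.52 without KO replicate 1 and -1.26 without KO replicate 3, and that for KH -0.19 without KH replicate 1 and -1.65 without KH replicate 2. The lowest values again came from KO replicate 1, KH replicate 1 and DKO replicate 2.

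Krt79, a keratin known from the hair canal and sebaceous duct, measured 124 and 77.8 FPKM in the WT libraries, 69.8, 111 and 66.1 in the KO libraries, 60.3 and 156 in the KH libraries, and 151 and 132 in the DKO libraries. DKO was above both WT and all KO libraries, and one KH library was higher still. In TPM, DKO replicate 1 (135) was below WT replicate 1 (139), so the separation from WT held in FPKM but not in TPM. Its log2 fold changes were 0.52 ± 0.45 (SE) against WT (adjusted p = 0.62), 0.81 ± 0.41 against KO (adjusted p = 0.845) and 0.54 ± 0.45 against KH (adjusted p = 0.971), from limma. Against WT it was 0.18 without WT replicate 2 and 0.85 without WT replicate 1. Against KH it changed sign, to -0.14, without KH replicate 1 and was 1.21 without KH replicate 2.

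Krt80, a type II keratin of differentiating epithelia, measured 59.2 and 74.9 FPKM in the WT libraries, 27.0, 24.2 and 73.7 in the KO libraries, 30.5 and 64.9 in the KH libraries, and 46.9 and 46.3 in the DKO libraries. DKO replicates differed by less than 1 FPKM and lay below WT, inside the range of both KO and KH. In TPM they were less alike, at 42.1 and 60.0, and still below WT (66.1 and 86.3). There DKO replicate 1 was just below both KH libraries (42.8 and 70.2). Its log2 fold change in DKO against WT was -0.51 ± 0.52 (SE), with a 95% interval of -1.70 to 0.68 and an adjusted p of 0.68 from limma.

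Genes that shape keratin networks were read from 6 lists, which share a few genes. None was called in DKO against WT by limma, beside 0.728% of all tested genes. Over all tested genes, 6.15% were higher and 7.6% lower in that comparison at an unadjusted p below 0.05, which sets the background for the counts of each list. Proteins that link or bundle keratin filaments, most of them desmosomal or plakin proteins, had 18 of 19 genes tested. Of these, 1 was higher and 5 were lower at an unadjusted p below 0.05, with a median log2 fold change of -0.33. Dsg1a and Dsc1 were among the lower genes both here and in the spinous layer list. Dsg1a, a desmosomal cadherin of suprabasal cells, measured 294 and 426 FPKM in WT and 146 and 107 in DKO (-1.49 ± 0.42 (SE), adjusted p = 0.182), and Dsc2, a desmosomal cadherin of lower layers, 1.28 and 1.26 against 2.66 and 3.17 (0.79 ± 0.19, adjusted p = 0.136). Keratin chaperones and turnover genes had 5 tested, 1 higher at that p and a median of 0.15. Hspb8, a small heat shock protein, measured 71.9 and 56.5 FPKM in DKO, 36.7 and 39.9 in WT and 14.9 and 23.1 in KH. It was called higher in DKO against KH, at a log2 fold change of 1.73 ± 0.28 (SE, adjusted p = 0.0446, limma), and not against WT (0.72 ± 0.28, adjusted p = 0.307), where the chaperone Dnajb6 gave -0.31 ± 0.20 (SE, adjusted p = 0.504).

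Regulators of epidermal keratin genes and layers, 27 genes and all tested, held 2 genes higher in DKO than in WT and 1 lower at an unadjusted p below 0.05, with a median log2 fold change of -0.15. Grhl1, a Grainyhead factor of the epidermal barrier, measured 131 and 118 FPKM in the WT libraries, 52.8, 92.1 and 114 in the KO libraries, 62.4 and 107 in the KH libraries, and 43.0 and 41.6 in the DKO libraries. Both DKO libraries were the lowest of the 9 (-1.54 ± 0.37 (SE) against WT, adjusted p = 0.136, limma). Runx1, a Runt factor active in hair follicle stem cells, measured 2.91 and 3.28 FPKM in DKO and 1.21 to 2.07 in the other 7 libraries (0.75 ± 0.20 (SE) against WT, adjusted p = 0.175).

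Basal layer genes other than keratins, 12 tested, had a median of 0.40 in DKO against WT, with 0 at an unadjusted p below 0.05, with Sfn, a 14-3-3 protein, at 0.76 ± 0.36 (SE, adjusted p = 0.397) and Cdh3, P-cadherin, at 0.79 ± 0.40 (adjusted p = 0.418). Spinous layer genes, 10 tested, had 3 lower at that p and a median of -0.33. Calml3, a calmodulin-like protein of keratinocytes, measured 1083 and 1140.1 FPKM for WT, 572 to 1188 for KO, 582 and 1036 for KH, and 359.7 and 127 for DKO, below all others (-2.37 ± 0.56 (SE) against WT, adjusted p = 0.127). Granular and cornified layer genes, 12 tested, had 2 lower and a median of -0.57, with Hrnr, a cornified envelope protein, at -1.66 ± 0.56 (SE, adjusted p = 0.251) and Abca12, a lipid transporter, at -1.69 ± 0.59 (adjusted p = 0.266), all from limma.

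Among 12187 genes that averaged at least 1 FPKM, the profiles most like those of the keratins over the 9 libraries were ranked by Pearson r of log2(FPKM + 1), as a description, since the libraries share their scaling and their makeup of layers. Nearest to Krt5 + Krt14 were Fen1 (0.986), Nuf2 (0.985), Ruvbl2 (0.985), E130012A19Rik (0.984) and Tubb5 (0.981). Fen1, Nuf2 and Tubb5 encode a replication nuclease, a kinetochore protein and a tubulin. Nearest to Krt1 + Krt10 were Coro1c (0.993), Pgd (0.992), Dpp3 (0.988), 4933433P14Rik (0.984) and Sdr16c6 (0.983), with 0.828 for Coro1c and 0.849 for 4933433P14Rik in TPM. Nearest to Krt77 were Tmem141 (0.976), H2-T22 (0.972), Ccdc65 (0.963), Ttk (0.963) and Mmp2 (0.958), with 0.866 for Ttk and 0.819 for Mmp2 in TPM. Tmem141, H2-T22 and Ccdc65 remained among the 5 nearest to Krt77 in TPM, as Fen1, Nuf2 and Ruvbl2 did for the basal pair and Dpp3 and Sdr16c6 for the suprabasal pair.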

How the data were processed

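RNA-seq of E18.5 mouse epidermis was analysed in 9 libraries, which the sample labels place in 4 genotypes. The authors mapped 100 base paired reads to mm10 with TopHat 1.4.1 and deposited FPKM per gene and library from Cuffdiff 2.2.0. How Cuffdiff scaled libraries against each other is not given in the sources used here, the file's genotype mean columns were not used, and FPKM gives no depth or counting interval.

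The 16897 genes that averaged above 0.1 FPKM in a genotype were fitted as log2(FPKM + 1), a scale that understates changes of low genes, in 1 limma model (limma 3.58.1, R 4.3.3) of 4 genotype means over all 9 libraries with an intensity trend and no covariate. Each comparison was adjusted by the Benjamini-Hochberg method over all tested genes. Replicates are individual embryos. The 2 ratio tests are exact permutation tests. The model was tested on simulated data. Nothing in the labels ties replicate numbers across genotypes.

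Members, lists and alternatives were chosen with earlier results of these data known. Genes named were the 10 keratins, Esrp1 and Esrp2, the genes of each list called in DKO against WT or else the 2 with the smallest p, and the 5 nearest profiles, and any other gene was picked with its values in view. There were 19 other settings: no filter, a filter at 1 FPKM, 0.1 as the pseudocount, only the 2 genotypes compared, no trend, TPM, median ratio scaling, arrayWeights, a replicate block, no fold threshold, and each library left out; another, chosen after seeing the data, left out KO replicate 1 and KH replicate 1. Ratios and plots were made with pandas 2.3.3 and matplotlib 3.10.9 in Python 3.11.15. Gene models came from GENCODE M21, promoters from RefSeq.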

Additional observations from a re-analysis of the deposited data

How the results depend on the processing

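The alternatives left most of the 50 log2 fold changes (10 keratins in 5 comparisons) in the same direction: of 450 values from alternatives that keep every library, 10 changed sign and 5 gained a call, and of 450 that leave out a library, 23 changed sign and 3 gained a call. The count of keratins called went from 0 to 1 in DKO against WT with a pseudocount of 0.1, TPM or arrayWeights (Krt2), and to 1 with TPM in DKO against KO and DKO against KH (Krt77). Leaving out 1 library moved it between 0 and 1 in each of these 3 comparisons. Krt2 was called without DKO replicate 2 against WT and KH, and Krt77 against KO without KO replicate 1. Both ratio differences kept their direction in the alternatives run for them. These were other pairs of the same keratins, a replicate block, each library left out, and KO replicate 1 and KH replicate 1 left out together. The smallest p the design allows lies above 0.05, so their tests could not change side.

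Signs that changed belonged to uncalled log2 fold changes, which lay between -0.58 (Krt15, DKO against KO) and 0.54 (Krt79, DKO against KH) with all libraries, and the cause was not tested. With TPM, Krt79 was 0.095 in KH against WT, Krt5 -0.028 in DKO against KO, and Krt1 -0.18 and Krt80 -0.12 in DKO against KH, where TPM moved the median of all genes to -0.12. Median ratio scaling gave -0.00077 for Krt5 in DKO against KO and -0.0051 for Krt1 in DKO against KH. Leaving out KO replicate 1 and KH replicate 1, added after seeing the data, gave -0.47 for Krt5 and 0.66 for Krt79 in KH against WT, and -0.32 for Krt1, -0.14 for Krt79 and -0.47 for Krt80 in DKO against KH. Leaving out each library in turn, values ran in KO against WT from -0.63 to 0.041 (Krt79), and in KH against WT from -0.47 to 0.57 (Krt5), -0.088 to 0.79 (Krt77) and -0.70 to 0.66 (Krt79). In DKO against KO they ran from -0.16 to 0.22 (Krt5), -0.058 to 0.34 (Krt14), -1.17 to 0.010 (Krt15), -0.52 to 0.24 (Krt1) and -0.85 to 0.24 (Krt78). In DKO against KH they ran from -0.25 to 0.80 (Krt5), -0.89 to 0.30 (Krt15), -0.32 to 0.33 (Krt1), -0.47 to 0.084 (Krt10), -1.01 to 0.45 (Krt78), -0.14 to 1.21 (Krt79) and -0.47 to 0.59 (Krt80).

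Same-numbered replicates deviated together in KO and KH (correlation 0.46) but not across the genotypes in general (-0.64 to 0.46), and some embryo names (both of DKO and 1 each of KO and WT) carry other numbers than the replicate labels, so the replicate numbers were not taken to pair embryos. A replicate block gave -0.12 for Krt5, -0.058 for Krt14, 0.24 for Krt1 and 0.066 for Krt78 in DKO against KO, called 0 keratins, and gave 67 called genes in DKO against WT where the fit without it gave 123. Over all alternatives that count ran from 41 without a filter to 556 with arrayWeights. Its split of 81 higher and 42 lower became 96 and 81 with TPM, and lower calls prevailed with only the 2 genotypes compared (141 and 259) and with arrayWeights (250 and 306). Those of DKO against KO (88 and 20) and KH (65 and 7) became 100 and 49, and 74 and 26, with TPM, and that against KH 40 and 62 without KH replicate 1. With 2 or 3 embryos a genotype and intervals as wide as those of Krt1 and Krt10, sizeable differences could not be detected, and a p above the threshold does not show that levels were alike. FPKM without counts leaves the error of low values, such as those of Krt2, unknown.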
